A study of Symphysodon aequifasciata with 2 samples.

Results

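The features described here are the respiratory chain genes of the discus brain, both those carried by the mitochondrial genome and those carried by the nucleus. They were taken by name: rows whose symbol begins with mt-co, mt-nd, mt-atp or mt-cyb, and rows whose protein match contains NADH dehydrogenase, cytochrome c oxidase, cytochrome b-c1, succinate dehydrogenase or ATP synthase. This gave 147 of the 40209 features in the deposited table, 10 of them mitochondrially encoded and 137 others. By their protein names the 137 were 101 subunits of complexes I to V, 21 assembly factors or chaperones, 14 features that match an ATP synthase delta subunit but carry no symbol, and 1 subunit of the vacuolar proton pump, which is no part of the chain. The rule uses names only and no measured value, but it was chosen with earlier results of these data known.

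The female library came from the brain of 1 female discus (Symphysodon aequifasciata) and the male library from that of 1 male, both aged 1 year. Both fish came from the same breeding laboratory and were killed with MS-222, an anaesthetic, at 100 mg/L, and poly(A) RNA of each brain was sequenced as 1 library. There is therefore no replicate of either sex, no test between the sexes was possible, and every difference below describes these 2 libraries, where sex, fish and library preparation cannot be told apart. The sex of each library is that of its gender label, and the initials of the titles, O for the library labelled male and T for the one labelled female, are not explained.

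The respiratory chain moves electrons from NADH and succinate to oxygen through complexes I to IV of the inner mitochondrial membrane, and the proton gradient that builds up drives ATP synthase, complex V. The catalytic heart of complexes I, III and IV and the proton channel of complex V include subunits made inside the mitochondrion from its own genome, while complex II is wholly nuclear encoded. The mitochondrial genes of vertebrates are transcribed as long precursors that are cut into single messages and given short poly(A) tails, whereas each nuclear subunit has a gene and a promoter of its own. Neurons depend on this pathway for most of their ATP.

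Values are TPM (transcripts scaled to a fixed library total), a level per feature length and per library, and they sum to 943014 in the female library and 937828 in that of the male. Every listed feature reached at least 6.01 TPM in the higher library, so features low in both are not part of the table. A log2 ratio below is log2((female TPM + 0.5) / (male TPM + 0.5)), positive where the female library was higher, and a fold given for a feature or a sum is a ratio of TPM without that addition. Counts of features past 2-fold or within 1.25-fold use the log2 ratio with the addition. For marker genes, a symbol with several features is represented by the feature with the highest mean TPM. Other features of that symbol are left out of the counts and sums. The measured symbols had 8 features for neurons, 9 for radial glia and astrocytes and 6 for red blood cells. Neuron and glia markers were present in both libraries, which fits the labelled tissue, but did not all move one way. Of 8 neuron markers 5 were measured, 2 above and 3 below 0, with snap25a at 2642 TPM in the female and 2201 TPM in the male library and ELAVL3 at 25.9 and 52.7 TPM. All 5 markers of radial glia and astrocytes were measured, 4 of them above 0, and they summed to 3372 TPM in the female and 2574 TPM in the male library, most of it FABP7 at 2443 and 1652 TPM. Markers of red blood cells, which in fish keep a nucleus and mitochondria, also differed. Of the 4 measured of 7 fixed, hbb1, hbaa and alas2 lay above 0 and slc4a1 below it. The 4 summed to 1713 TPM in the female and 845 TPM in the male library, most of it hbb1 at 1043 and 520 TPM. The part of these cell types in the values below was not tested. In bulk tissue, more cells of a type and more RNA per cell cannot be told apart.

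Across the chain the libraries were close. The 147 features summed to 56440.1 TPM in the female and 51416 TPM in the male library, 5.985% and 5.48% of all listed TPM. By the log2 ratio, 1 of the 147 passed 2-fold towards the female library and 2 towards the male library. Without the added 0.5 TPM a further feature, at 2.04-fold, passed on the female side. Of all listed features, 5.02% lay that far on the female side and 10.1% on the male side. The 3 counted are among the 60 features of the chain under 500 bases, a length at which 8.15% of all features passed 2-fold on the female side and 16.2% on the male side. No feature of the chain was listed at 0 in either library, and none of the 87 features of 500 bases or longer was 2-fold apart, where 0.747% of all features of that length passed 2-fold on the female side and 1.91% on the male side. More of the chain lay on the female side than of the table as a whole: 89 of 147 features had a log2 ratio above 0, against 43.7% of all features, and the median log2 ratio was 0.07, against -0.07. Of the 147, 115 lay within 1.25-fold, against 46.3% of all features. Of features of 500 bases or longer that reached 20 TPM, 72.1% lay within 1.25-fold and 48.1% above 0, but 60 of the 147 are shorter than that. Among features of 500 bases or longer, 52 of 57 nuclear subunits lay within 1.25-fold and 33 above 0. The shares of all features of that length were 67.7% and 44.6%. The log2 levels of the 2 libraries correlated across the 147 features with Pearson's r = 0.99, as a description over features that share their libraries.

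**Figure D1:**
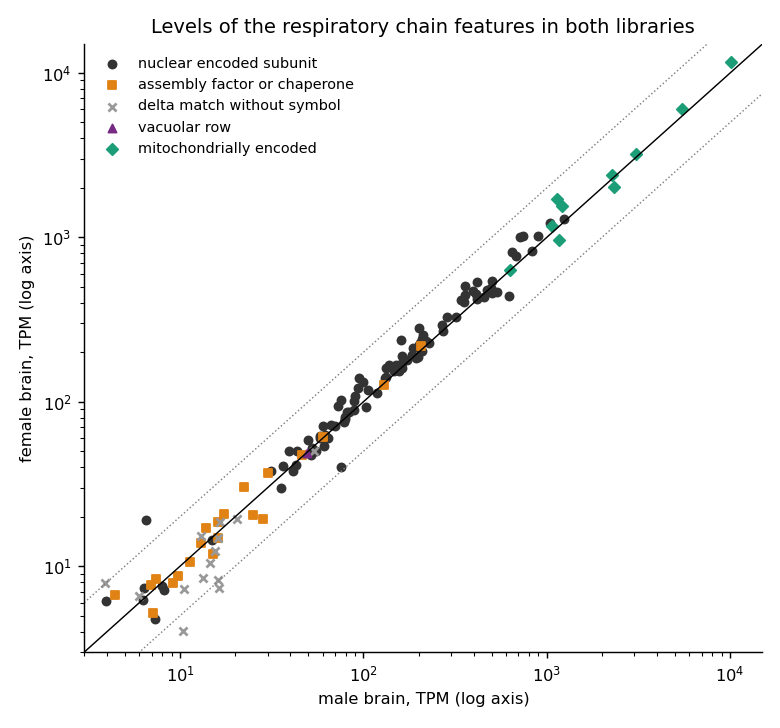
Level of each of the 147 respiratory chain features in the female library (vertical, TPM, log axis) against the male library (horizontal, TPM, log axis), 1 point per feature, with the line of equality and dotted lines at 2-fold. The highest points are mitochondrially encoded, 8 nuclear subunits lie above the lowest of these, MT-ND5, and the few points at or beyond 2-fold lie under 20 TPM.

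The mitochondrially encoded genes were among the most abundant messages of the brain, and 8 of the 10 were higher in the female library. Together they measured 31300.5 TPM in the female and 28498 TPM in the male library, 3.32% and 3.04% of the listed total and a fold of 1.10. Their median log2 ratio was 0.11, and 0 of the 10 reached 2-fold in either direction. Few features of like length and level did: of 5033 features of 500 bases or longer that reached 20 TPM, 31 passed 2-fold on the female side and 70 on the male side. Of the 10, 9 are that long. The most abundant feature of the whole table was mt-co3, the third core subunit of cytochrome c oxidase, at 11608 TPM in the female and 10148 TPM in the male library. The catalytic subunit mt-co1, which holds the site where oxygen is reduced, measured 5999.6 TPM in the female and 5485 TPM in the male library. The copper-binding subunit mt-co2, which takes electrons from cytochrome c, measured 3235 TPM in the female and 3052 TPM in the male library. All 3 core genes of complex IV were thus slightly higher in the female library, by 1.14-fold, 1.09-fold and 1.06-fold. The single mitochondrial gene of complex III, mt-cyb (cytochrome b), measured 2398 TPM in the female and 2272 TPM in the male library.

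The proton channel subunit of ATP synthase, mt-atp6, went the other way, at 2029.9 TPM in the female and 2338 TPM in the male library, 1.15-fold higher in the male. In vertebrates mt-atp6 lies next to mt-co3 and is cut from the same precursor, and here both features also share the identifier stem TRINITY_DN11619_c0. A shared stem is not particular to this pair, since MT-ND5 and mt-cyb share TRINITY_DN14065_c0. The level of mt-co3 over that of mt-atp6 was 5.72 in the female library and 4.34 in that of the male. A feature named for mt-atp8, which shares its message with mt-atp6 in vertebrates, was not matched, nor were mt-nd4l and mt-nd6, and these genes are not described.

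The 5 genes of complex I, which form its membrane arm, showed the widest spread of the mitochondrial set. MT-ND1, at the joint with the arm that takes electrons from NADH, measured 1705 TPM in the female and 1141 TPM in the male library, and its fold of 1.495 is the largest of the 10. MT-ND2 measured 1552 TPM in the female and 1204 TPM in the male library, 1.29-fold higher in the female. MT-ND4 and MT-ND5 were nearer to equal, at 1178.5 and 629.7 TPM in the female and 1065 and 628 TPM in the male library. MT-ND3, on a feature of 293 bases, was 1.21-fold higher in the male library, at 965 TPM in the female and 1165 TPM in the male. All 5 were lower than the other mitochondrial genes in both libraries. In the female library their order ran MT-ND1, MT-ND2, MT-ND4, MT-ND3, MT-ND5, and in the male library MT-ND2, MT-ND3, MT-ND1, MT-ND4, MT-ND5. The span from mt-co3 to MT-ND5 was 18.4-fold in the female and 16.2-fold in the male library.

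The values of short features step by the worth of 1 read, which gave a read count and an exact 95% interval of each fold for counting error alone. For features over 380 bases this counts too few reads, which widens the interval. It ran from 1.44 to 1.55 for MT-ND1, from 1.25 to 1.33 for MT-ND2 and from 1.13 to 1.16 for mt-co3. That of mt-atp6 ran from 0.84 to 0.89 and that of MT-ND3 from 0.78 to 0.88, both below 1. Only the interval of MT-ND5 held 1, at 0.95 to 1.06. Counting error thus does not cover 9 of the 10 differences between these libraries, but the spread between fish is not measured here, and duplicated reads would make the true intervals wider.

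**Figure D2:**
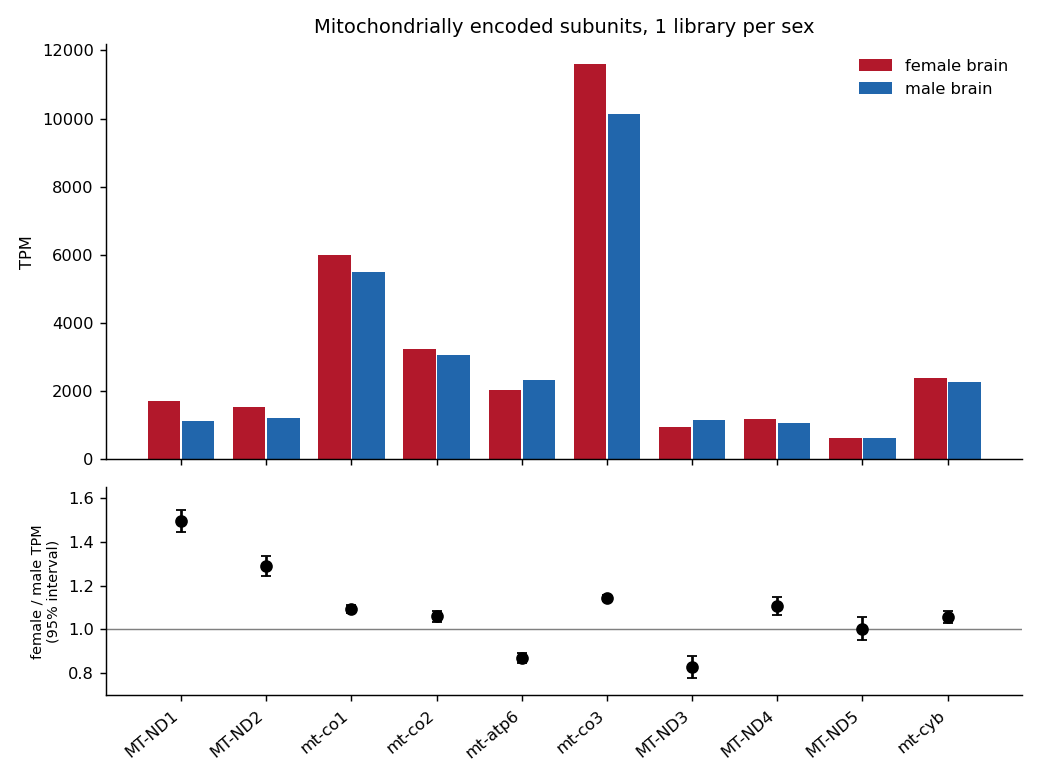
Upper panel, TPM of the 10 mitochondrially encoded features in the female (left bar) and male (right bar) library, in the gene order usual for vertebrate mitochondrial genomes; lower panel, the fold of female over male TPM with its exact 95% interval for counting error alone. MT-ND1 and MT-ND2, at the left end, have the largest folds, and mt-atp6 and MT-ND3 lie below 1.

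Nuclear and mitochondrial subunits kept nearly the same balance in both brains. The 101 nuclear encoded subunits summed to 24189 TPM in the female and 21947 TPM in the male library, also a fold of 1.10. The mitochondrial sum over the nuclear subunit sum was therefore 1.29 in the female library and 1.30 in that of the male. The median feature level was 1868 TPM (female) and 1738 TPM (male) for the mitochondrial genes, against 153 and 133 TPM for the nuclear subunits in the same order. Levels overlapped among the mitochondrial genes of complex I, and 8 nuclear subunits lay above MT-ND5 in each library. The highest, subunit 6C-1 of complex IV, measured 1299.5 TPM in the female and 1235 TPM in the male library. It lay above MT-ND4, MT-ND3 and MT-ND5 in the female library and above every mitochondrial gene of complex I in the male. The share of mitochondrial TPM among the subunits of a complex was 46.8% (female) and 46.3% (male) in complex I, 50.7% and 49.5% in complex III, 71.2% and 70.5% in complex IV, and 24.5% and 30.1% in complex V. Both parts of complex V enter its gap. Its single mitochondrial feature here, mt-atp6, had a fold of female over male of 0.87, and its nuclear subunit sum 1.15. The median log2 ratio of mitochondrial features exceeded that of the 137 others by 0.05, a difference that was not tested. The order-statistic 95% interval of the mitochondrial median alone ran from -0.20 to 0.37, over genes that share their libraries.

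**Figure D3:**
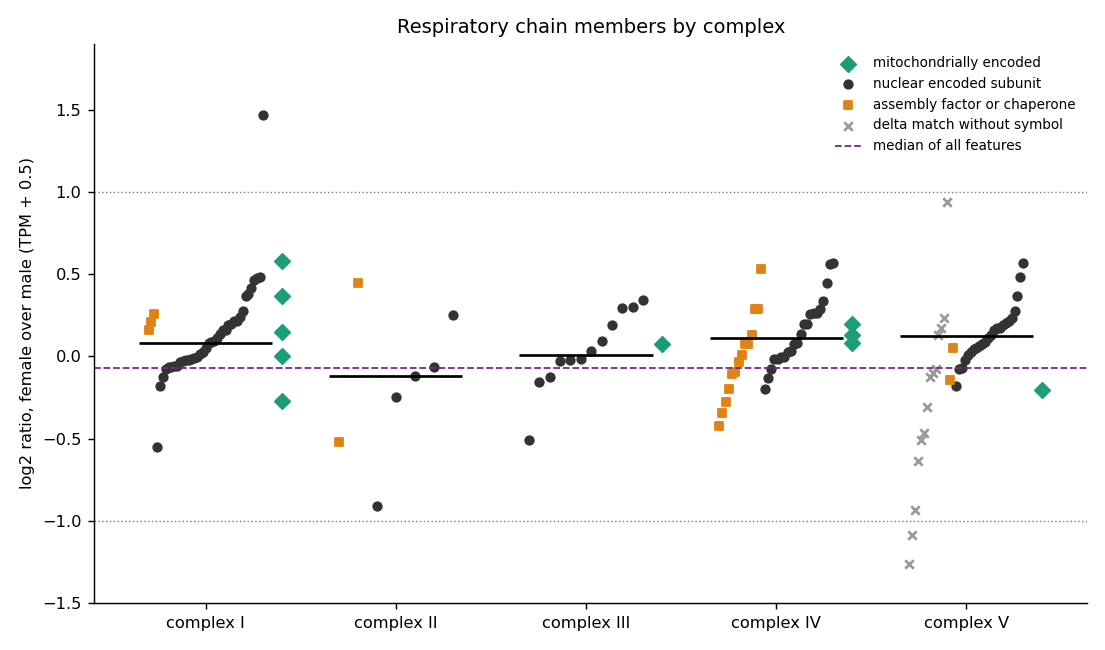
Log2 ratio of female over male (TPM + 0.5) for each feature of the chain, by complex, with diamonds for mitochondrially encoded features, dots for nuclear subunits (black bar, their median), squares for assembly factors and crosses for the delta matches without a symbol; the vacuolar row is left out. Dotted lines mark 2-fold and the dashed line the median of all features at -0.07; subunit medians lie between -0.12 in complex II and 0.12 in complex V.

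Complex I, which oxidises NADH, is the largest of the chain, and its 38 nuclear subunit features were mostly equal or slightly higher in the female library. Of these, 23 lay above and 15 below 0, 30 lay within 1.25-fold, and the sums were 6866 TPM in the female and 6040.4 TPM in the male library. The most abundant was Ndufa1, a small membrane-arm subunit, at 1016 TPM in the female and 737 TPM in the male library, a fold of 1.38 with a counting interval from 1.30 to 1.46. Next came NDUFB1 at 542 and 501.3 TPM and subunit C1 at 436 and 456 TPM, in the same order. Other accessory subunits with higher values in the female library were NDUFA2, at 503 TPM against 360.0 TPM in the male, and NDUFA5, at 281 TPM against 202 TPM. By part, 8 of 13 alpha subcomplex and 8 of 11 beta subcomplex features lay above 0, with medians of 0.08 and 0.13. The alpha features were placed by protein name and include Ndufa4l2, although the ndufa4 features are counted with complex IV. Under 500 bases were 6 of the alpha and 6 of the beta features. Over all nuclear features of complex I of at least 500 bases, the median log2 ratio was 0.01. The part of length in the difference between these groups was not tested. Core subunits with flavoprotein or iron-sulfur protein in their names were nearer to equal. Their group was formed after the values were seen and held only features of 500 bases or longer. Of these, NDUFV1, NDUFV2, NDUFS3, NDUFS7 and NDUFS8, each on its longest feature, had log2 ratios from -0.13 to 0.03. The most abundant of these, NDUFS3, measured 80.4 TPM in the female and 79.6 TPM in the male library.

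The feature that passed 2-fold on the female side also belongs to complex I. It is a fragment of 240 bases named NDUFV1, the subunit where NADH is oxidised, at 18.96 TPM in the female and 6.54 TPM in the male library, or 21 reads against 8. Its fold of 2.90 has a counting interval from 1.23 to 7.57. A second fragment of NDUFV1, of 325 bases, measured 4.80 and 7.27 TPM and had the largest ratio towards the male library in complex I. The NDUFV1 feature of 1554 bases measured 63.0 TPM in the female and 61.9 TPM in the male library, so the fragments do not speak for the gene.

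Complex II, succinate dehydrogenase, which links the citrate cycle to the chain, was the complex whose nuclear subunits had a lower sum in the female library. Its 5 subunit features summed to 302 TPM in the female and 341 TPM in the male library, 4 of 5 were below 0, and the median log2 ratio was -0.12. The difference was largely that of 1 feature of sdhb, the iron-sulfur subunit: the sdhb feature of 969 bases measured 39.9 TPM in the female and 75.4 TPM in the male library. It was 1.89-fold higher in the male, with a counting interval from 1.58 to 2.28, the largest ratio of any feature of 500 bases or longer in the chain. The other sdhb feature, of 1388 bases, measured 47.4 and 51.6 TPM. SDHC, a membrane anchor, measured 113 TPM in the female and 119 TPM in the male library, and the other anchor sdhdb 29.8 and 35.5 TPM. The catalytic flavoprotein sdha was higher in the female library, at 71.7 TPM against 60.1 TPM. The assembly factors went apart, with sdhaf2, which helps to attach the flavin, at 19.5 and 28.1 TPM and Sdhaf4 at 30.4 and 22.2 TPM.

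Complex III, cytochrome b-c1, passes electrons from ubiquinol to cytochrome c, and its 12 nuclear features split evenly, 6 above and 6 below 0, with sums of 2327 TPM in the female and 2318 TPM in the male library. Uqcrq (subunit 8), which binds next to cytochrome b, stood apart on the male side: it measured 440.2 TPM in the female and 626 TPM in the male library on a feature of 304 bases. Its fold of male over female was 1.42, with a counting interval from 1.31 to 1.54. On the female side were the small subunits Uqcr11 (subunit 10), at 444 TPM against 360.1 TPM in the male, and Uqcrh, the hinge protein, at 417 TPM against 340.3 TPM. The largest ratio towards the female library was that of a UQCRC2 core protein feature of 1588 bases, at 50.2 and 39.4 TPM, while the other UQCRC2 feature measured 71.5 and 69.9 TPM. The Rieske iron-sulfur protein Uqcrfs1 was slightly lower in the female library on both of its features, with log2 ratios of -0.16 and -0.12.

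Complex IV, cytochrome c oxidase, had the highest nuclear sums, 8444 TPM in the female and 7813 TPM in the male library over 22 subunit features, of which 15 lay above and 7 below 0. Its small subunits led: 6C-1 at 1299.5 TPM in the female and 1235 TPM in the male library, COX7C at 1025 and 893 TPM, and COX6A1 at 825 and 826 TPM. The largest ratios were those of subunit 4 isoform 2 and COX8B. Subunit 4 isoform 2, whose mammalian counterpart is tied to low oxygen and to the lung, measured 140.4 TPM in the female and 94.5 TPM in the male library, a fold of 1.49 with a counting interval from 1.32 to 1.68. Subunit 4 isoform 1, the usual form, measured 459.6 TPM in the female and 504 TPM in the male library. COX8B, which in mammals is the form of heart and skeletal muscle, measured 236 TPM in the female and 159.8 TPM in the male library, and COX8A, the general form, 495 and 496 TPM. Of 10 skeletal muscle markers 2 were measured, mb (myoglobin) at 1746 TPM in the female and 1116 TPM in the male library and TNNT3 at 10.1 and 24.7 TPM, and their part in the COX8B value was not tested. Another pair, described after the values were seen, had the same fold. The features matched to subunits 7A2 and 7A1, both with the symbol COX7A2, were each 1.20-fold higher in the female library. The counting interval ran from 1.13 to 1.28 for the 7A2 feature. That of the 7A1 feature, from 0.94 to 1.54, held 1. COX7B measured 813 TPM in the female and 642 TPM in the male library. The 2 features of ndufa4, now counted with this complex, measured 480 and 466 TPM in the female and 471 and 536 TPM in the male library.

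Complex V, ATP synthase, had 20 of its 24 nuclear subunit features above 0, with a median log2 ratio of 0.12. The 24 were placed by protein name and include Atp5sl, which is named only as a subunit s-like protein. The sums were 6250.2 TPM in the female and 5435 TPM in the male library. The stalk subunit ATP5E (epsilon) measured 1003 TPM in the female and 716 TPM in the male library on 299 bases, a fold of 1.40 with a counting interval from 1.31 to 1.49. The membrane subunits f (Atp5j2) and e measured 1215 and 769 TPM in the female and 1045 and 681 TPM in the male library. Coupling factor 6 (Atp5j) measured 538 TPM in the female and 417 TPM in the male library on its more abundant feature. The most abundant features of the catalytic subunits alpha and beta were Atp5a1 and atp5b. They measured 179 and 229 TPM in the female and 174 and 203 TPM in the male library. The fold was 1.03 for Atp5a1 and 1.13 for atp5b, the latter the same as that of subunit e. The nuclear subunits and mt-atp6 of this complex thus pointed in opposite directions, with a fold of the sums of 1.15 for the nuclear subunits and of 0.87 for mt-atp6.

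Counted with complex V by name, but doubtful, are 14 features matched to an ATP synthase delta subunit of another fish, Anabarilius grahami. They were set apart because they carry neither a symbol nor a description from the Swiss-Prot protein database. Among the subunits, 7 other features without a symbol were kept. None of the 14 delta matches has a GO term or falls in the oxidative phosphorylation pathway of the table. Of the 14, 6 carry a protein domain (Pfam) description and 12 are under 500 bases. The ATP5D feature, which does carry the symbol of that subunit, measured 172 TPM in the female and 163 TPM in the male library. The 14 summed to 191 TPM in the female and 226 TPM in the male library, and 10 lay below 0. Both features that passed 2-fold on the male side are among them, at 4.03 and 7.36 TPM in the female and 10.4 and 16.2 TPM in the male library, with 7 reads each in the female. The counting interval of the second, 0.87 to 6.27 for male over female, held 1. Just inside 2-fold by the log2 ratio were another of the 14, at 7.91 and 3.88 TPM with a log2 ratio of 0.94, which is 2.04-fold without the added 0.5 TPM, and a further one at 8.19 and 16.1 TPM with a log2 ratio of -0.93. With all 40 nuclear features named for the complex the median log2 ratio was 0.06.

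Assembly factors and chaperones, which insert metal centres and join subunits but do not stay in the complexes, were measured on 21 features with a lower median level than the subunits. They had a median level of 17.1 TPM in the female and 16.0 TPM in the male library, and 12 lay above and 9 below 0, with a median log2 ratio of 0.05. COX17, the copper chaperone of complex IV, was the most abundant, at 217 TPM in the female and 206 TPM in the male library. Among the other 13 factors of complex IV, Cox11, which delivers copper, lay farthest towards the female library, at 6.63 and 4.44 TPM, and coa7 farthest towards the male, at 5.19 and 7.12 TPM. The 3 factors of complex I, ndufaf3, Ndufaf2 and Ndufaf4, all lay above 0, with log2 ratios from 0.16 to 0.26. The ATP synthase factor atpaf1 measured 47.6 TPM in the female and 46.0 TPM in the male library, and Atpaf2 8.74 and 9.70 TPM.

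Of 104 symbols in the chain, 18 were carried by more than 1 feature, 39 features in all. Teleost fish keep many duplicated genes, and paralogs, alleles and fragments of 1 gene cannot be told apart in this table. In 13 of the 18 the features of a symbol pointed the same way, as for cox6b1, whose 3 features measured 329, 167 and 102 TPM in the female and 287, 137 and 75.1 TPM in the male library. The 5 with opposite directions were atp5b, cox5a, ndufa4, ndufv1 and uqcrh. Both features of uqcrh are under 500 bases, and ndufa4 and ndufv1 have only 1 longer feature each. No feature of 500 bases or longer of these symbols differed by more than 1.25-fold between the libraries. The features of sdhb shared a direction but not a size, at 1.89-fold and 1.09-fold higher in the male.

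**Figure D4:**
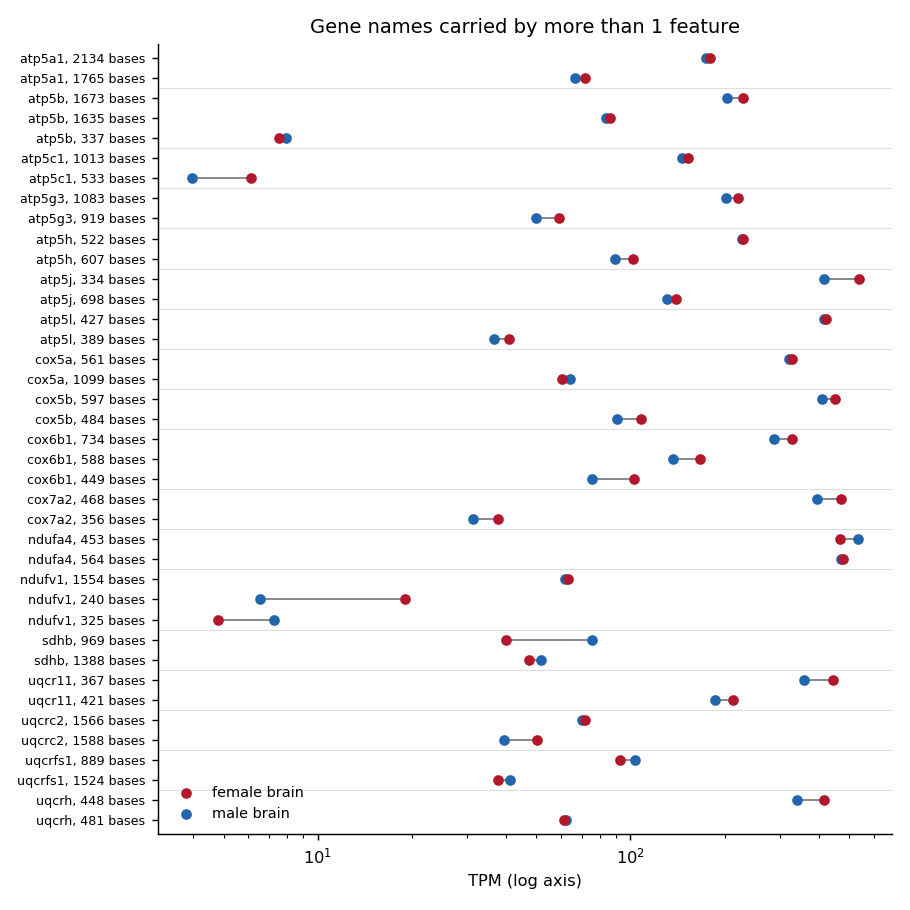
TPM (log axis) in the female and male library for each feature of the 18 symbols carried by more than 1 feature, with its length in bases. The widest gaps are those of the 240-base NDUFV1 fragment and of the 969-base sdhb feature, in opposite directions.

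Level and ratio both went with feature length among the nuclear subunits, whose features share their libraries and whose lengths are those of the assembly. Shorter features were the more abundant (Spearman's rho of level and length -0.48 over 101 features), and 10 of the 11 with a mean of at least 500 TPM were under 500 bases. The ratio fell weakly with length (rho -0.27). The 44 subunit features under 500 bases had a median log2 ratio of 0.18 with 32 above 0, and the 57 longer ones 0.03 with 33 above 0. Over all features reaching 20 TPM, the median was -0.22 up to 350 bases and -0.04 over 1000 bases, against 0.12 and 0.03 for nuclear subunits in the same ranges. The worth of 1 read fell with length in the same way in both libraries, to 0.23 TPM in the female and 0.20 TPM in the male library at 380 bases. The part of length in the ratios of single subunits was not tested.

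**Figure D5:**
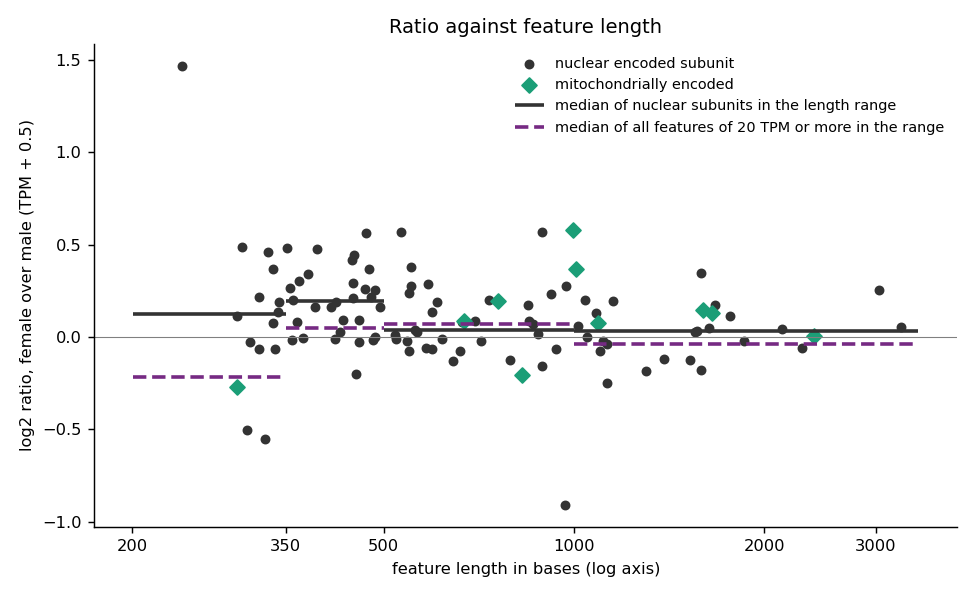
Log2 ratio of female over male (TPM + 0.5) against feature length (log axis) for the 101 nuclear encoded subunits and the 10 mitochondrially encoded features; bars give the median of nuclear subunits (solid) and of all features of 20 TPM or more (dashed) in 4 length ranges. Solid bars lie above 0 in all 4 ranges, and the dashed bar of the shortest range lies at -0.22. From 501 to 1000 bases the dashed bar lies above the solid one.

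Genes that work beside the complexes were described in 3 lists, beside a table in which 43.7% of all features lay above 0 and the median log2 ratio was -0.07. Of 39 genes of electron carriers and exchange fixed for comparison, 25 were measured, 8 above and 17 below 0, with a median log2 ratio of -0.04 and none 2-fold apart. The ADP/ATP translocase SLC25A5, which exports the ATP made, was the most abundant at 422 TPM in the female and 440 TPM in the male library. Cytochrome c (cyc), the carrier between complexes III and IV, measured 61.2 and 72.1 TPM. The largest ratio towards the female library was that of PDSS2, an enzyme of the ubiquinone side chain, at 10.6 and 5.88 TPM, and the largest towards the male that of coq6, a ubiquinone synthesis enzyme, at 13.0 and 16.4 TPM. Of 33 genes that express the mitochondrial genome, 21 were measured, 9 above and 12 below 0, close to the share of the whole table, with a median of -0.02. SLIRP, which with lrpprc stabilises mitochondrial messages, was the most abundant at 196 TPM in the female and 162 TPM in the male library, and lrpprc itself measured 16.2 and 17.7 TPM. The largest ratio towards the male library was that of Fastkd2, a protein of mitochondrial RNA granules, at 15.4 and 23.3 TPM, and that towards the female of Mtpap, the mitochondrial poly(A) polymerase, at 6.10 and 4.65 TPM. The packaging and transcription factor TFAM measured 9.31 and 12.1 TPM. Of 13 regulators of mitochondrial biogenesis, 9 were measured, 3 above and 6 below 0, with a median of -0.19. YY1 led at 48.8 and 45.6 TPM, PPARA had the largest ratio towards the male library at 15.3 and 23.8 TPM, and SIRT3, a mitochondrial deacetylase, the largest towards the female at 18.7 and 17.0 TPM.

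Some genes of the chain fall outside the naming rule because their protein names differ, and those given here were picked after their values were seen. NDUFS1, the largest core subunit of complex I, measured 104 TPM in the female and 97.8 TPM in the male library. CYC1, the cytochrome c1 of complex III, measured 75.2 and 70.6 TPM, and NDUFAB1, the acyl carrier protein of complex I, 72.3 and 66.6 TPM. Atp5i, of ATP synthase, and Cox10, which makes the heme of complex IV, lay on the other side, at 21.7 and 11.03 TPM in the female and 27.6 and 13.1 TPM in the male library. The vacuolar subunit ATP6V0E2, which the words ATP synthase bring into the rule, measured 49.1 TPM in the female and 49.3 TPM in the male library.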

How the data were processed

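Brain poly(A) RNA of 1 female and 1 male discus was measured, and libraries were grouped by their gender label, with columns matched by title. Per the submitters' processing notes cutadapt, FastQC, Salmon and edgeR were used, with no versions or roles, and the feature identifiers have the form given by the Trinity assembler. The deposited values were read as TPM from their sums, their dependence on length and the use of Salmon, since no header names the unit. No sequence is in the table, and no genome was used here.

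Members were found by symbol and protein name and put into complexes and kinds by protein name. The ratio was log2((female TPM + 0.5) / (male TPM + 0.5)), requiring 1 TPM in the higher library removed nothing, and 2-fold was the line for a difference. The pseudocount understates the ratio of low features. With 1 library per sex there is no test and no p-value. The 95% intervals of medians come from order statistics.

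TPM holds no depth, but at each length from 201 to 380 bases low values were whole multiples of a step, found by a search for their period and taken as 1 read. Under 30 reads, 95.2% of 15049 values in the female and 95.5% of 13334 in the male library lay within 0.1 of a whole number, against 20% by chance. Exact (Clopper-Pearson) 95% intervals of folds use these reads and cover counting error only. Longer features use the step at 380 bases, which counts too few reads.

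All mitochondrial features were named, and for each complex the 3 most abundant nuclear features and the largest ratio in each direction, with features 2-fold apart and, of the other lists, the most abundant gene and the largest ratio each way. The remaining genes are further examples chosen after their values were seen. The values of 1 complex I subunit are not reported here. The members and lists were chosen with earlier results of these data known. Alternatives were other pseudocounts, filters, lengths, scalings and member lists. Software was SciPy 1.17.1, pandas 2.3.3, NumPy 2.4.6 and, for figures, Matplotlib 3.10.9, under Python 3.11.15, and the step search was tested on simulated data.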

Additional observations from a re-analysis of the deposited data

How the results depend on the processing

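There were 10 other settings, 9 of them planned and 1 (leaving out the delta matches and the vacuolar row) added after the data were seen. Of 106 recomputed values, 93 kept their direction and stayed within 1.5 times the count or inside the interval of the value reported. Some of the 93 were fixed in advance. Leaving out the 1 TPM filter, which removed nothing, returned the same values, and centring cannot move the difference of the medians. The median log2 ratio of the mitochondrial features stayed between 0.10 and 0.18 and that of complex II between -0.16 and -0.05. That of the 137 others was 0.13 after centring on the median of all features, which adds 0.07 to every ratio, and that of complex III turned to -0.020 among features of at least 500 bases. The number of features 2-fold higher in the female library was 2 with a pseudocount of 0.1 TPM and 2 after centring. It was 0 at a minimum of 20 TPM, 0 from 500 bases and 0 with 1 feature for each gene name. The number on the male side was 0 at 20 TPM, 0 from 500 bases, 0 for subunits only and 0 without the delta matches and the vacuolar row. Without features under 500 bases, which drops MT-ND3, the mitochondrial share of listed TPM was 3.22% (female) and 2.91% (male). Making the total without mitochondrial features equal moved the median of all features by -0.004. No paired analysis was possible because each sex has 1 library. Depth limits the features under 500 bases most, where a few TPM rest on a handful of reads, and no setting measures the spread between fish.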
